A study of Mus musculus with 5 samples.

Results

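VS3 is one of 3 aortic cell subtypes whose names in the authors' deposited annotation begin with VS. Its members are all cells that the annotation calls VS3, 423 of the 5600 aortic cells in the table. The rule used no level of any gene chosen here, but the subtype itself came from the authors' clustering of the same cells, so its differences from other subtypes are a description and carry no test.

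The cells come from 2 single-cell RNA libraries of mouse aorta, prepared on the 10x Genomics platform, which tags each captured RNA molecule with a unique molecular identifier (UMI). One library is labelled DKO and the other WT, and both are labelled ApoE. The letters DKO are not spelled out; the library names begin with an L, the shared protocol text speaks of liver DKO mice, and the series title concerns liver epsins. That protocol names 3 mice without tying them to a library and describes the isolation of liver cells; the age of the mice, the way the aortas were dissociated and the nature of the ApoE allele are not given in the labels. Each group is 1 library, so differences between the libraries have no replicate check and get no test. Intervals in brackets are exact 95% intervals that cover counting error only, and pairs of values give the library labelled DKO first and that labelled WT second.

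Smooth muscle cells of the aortic media contract through an actin and myosin apparatus that includes smooth muscle actin, transgelin and smooth muscle myosin, and their tone is set by calcium channels, calcium pumps and kinases. They also secrete elastin, collagens and matrix Gla protein. In atherosclerosis they can lose contractile gene expression and gain genes of matrix remodelling, such as osteopontin, a state often called modulated.

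Cells of VS3 were the shallowest in the aorta table. The VS3 cells labelled DKO held 241473 UMIs in all and a median of 596 UMIs per cell (quartiles 536.5 and 705), and those labelled WT held 48275 UMIs and a median of 584.5 (550.25 and 719.25). These medians were the lowest of the 18 subtypes with at least 20 cells labelled DKO and of the 22 labelled WT, where the next lowest were MP1 at 973 and VS2 at 770. In VS1 the medians were 2365 and 2119, in VS2 1072.5 and 770, and over all aortic cells 1773.5 and 1709.5. Only 23 VS3 cells labelled DKO and 5 labelled WT reached 1000 UMIs. The lowest cells of VS3 stood at 499 and 505 UMIs, beside 499 and 500 over all cells of the libraries, so the group reaches down to the lower edge of the deposited data. With each cell thinned to 500 UMIs, the median number of detected genes was 319 and 320.5 in VS3, against 375 and 385.5 in VS1 and 354 and 368.5 in VS2; 1 VS3 cell was too shallow to be thinned. Without thinning the VS3 medians were 370 and 372.5 genes.

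**Figure D1:**
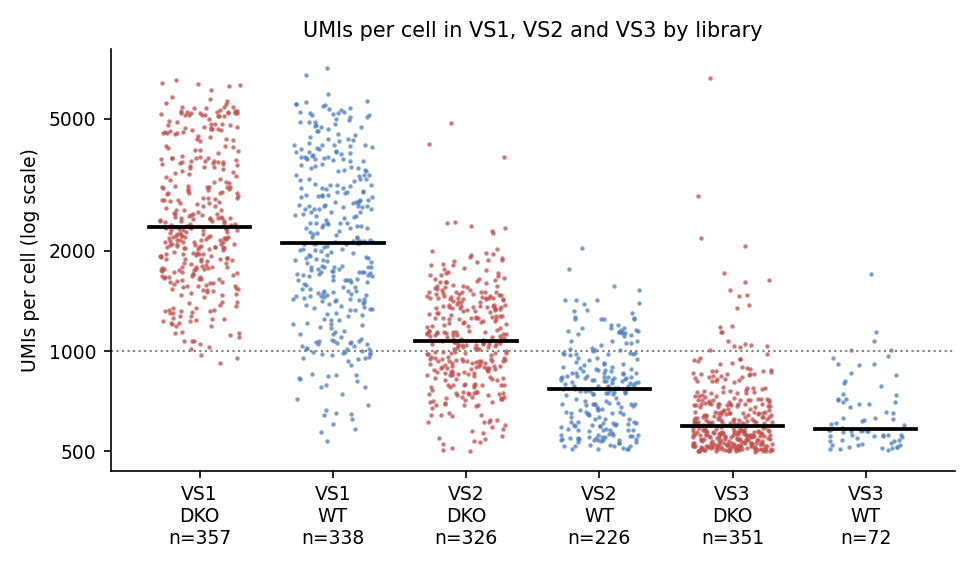
UMIs per cell on a log axis for VS1, VS2 and VS3 in each library; each point is a cell, black bars are medians and the dotted line marks 1000 UMIs. The VS3 medians of 596 and 584.5 lie under those of VS1 and VS2 in both libraries.

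The label of smooth muscle was checked against 12 marker genes, of which 11 had UMIs in VS3 in each library; the phospholamban gene Pln was at 0 in both. Their summed level, as UMIs per 1e+06 UMIs of the subtype in the library (CPM), was 26723 CPM labelled DKO and 26784 CPM labelled WT. VS1 was higher at 37693 and 34860 CPM, VS2 at 33530 and 32490 CPM, and the next subtype below VS3 was AP2 at 22303 and 22796 CPM. The markers therefore placed VS3 below VS1 and VS2 and above every other ranked subtype, by a small margin over AP2. None of the 10 genes that led VS3 over all other aortic cells was a smooth muscle marker: they were Tnnt2, Cyb5r3, Kctd10, Kif1c, Fabp4, Dynll2, Cenpb, Rassf3, Atf5 and Anp32b.

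Markers of other cell types were lower in sum but not absent. Fibroblast markers summed to 2704 and 3024 CPM in VS3, with 11 and 6 of 12 genes detected, against 1555 and 2355 CPM in VS1 and 1659 and 2277 CPM in VS2. Most of that sum was Lum (240 and 29 UMIs) and Dcn (213 and 78 UMIs), 2 small matrix proteoglycans, followed by Gsn (140 and 26 UMIs). Pdgfra, the defining receptor of fibroblasts, had 2 and 0 UMIs. Erythroid markers were at 1433 and 621 CPM, all but 7 and 5 UMIs of them globins. Endothelial markers summed to 273 and 311 CPM, macrophage markers to 74.5 and 62.1 CPM and chondrocyte markers to 352 and 766 CPM. Neutrophil, B cell and mesothelial markers were at 0 in both libraries, and T cell markers at 4 and 0 UMIs. At least 2 different marker genes of another type were present in 145 of 351 VS3 cells labelled DKO (41.3%) and 29 of 72 labelled WT (40.3%), most often of fibroblasts (118 and 25 cells). This count was made in VS3 only, so no share in VS1 or VS2 stands beside it. The part that free RNA, doublets or true expression had in the VS3 cells with such markers was not tested.

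The annotation also holds a clustering made without integration of the libraries, and there VS3 was not one group. Cluster 0 of it held 337 of the 351 VS3 cells labelled DKO and 51 of the 72 labelled WT. Cluster 11, of which the largest part was cells of subtype FB1 (111), held 8 and 18, a larger part of VS3 labelled WT than of VS3 labelled DKO. In the 18 VS3 cells of cluster 11 labelled WT the smooth muscle markers summed to 11510 CPM and the fibroblast markers to 6009 CPM, against 33127 and 1871 CPM in the 51 cells of cluster 0. In the 8 cells labelled DKO the sums were 11800 and 4307 CPM, against 27387 and 2601 CPM in cluster 0. Acta2 was nevertheless seen in 94.4% of the 18 cells and in all 8. Cluster 0 was itself shared with VS2 (359 cells) and VS1 (24 cells). Of the 4 cell barcodes that occur in both libraries, none belonged to VS3.

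VS3 took a larger share of the library labelled DKO. It made up 351 of 2800 cells there (12.5%, 11.3 to 13.8) and 72 of 2800 labelled WT (2.57%, 2.02 to 3.23), a ratio of 4.88 (3.77 to 6.37). The ratio was 1.06 (0.908 to 1.23) for VS1 and 1.44 (1.21 to 1.72) for VS2. Among the cells of VS1, VS2 and VS3 together, VS3 was 33.9% (31.1 to 36.9) of 1034 and 11.3% (8.96 to 14.0) of 636, a ratio of 3.00. Counting only the VS3 cells of unintegrated cluster 0 gave 6.61 (4.91 to 9.05). Fewer cells and less RNA per cell cannot be told apart here, since the shallowest VS3 cells lie at the lowest depth in the table, and with 1 library each the label and the library preparation cannot be told apart either.

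Of the epsins named in the series title, Epn1 (chromosome 7, 5080235 to 5098178 on mm10) had 11 and 2 UMIs in VS3, a ratio of 1.10 (0.240 to 10.2), and Epn2 (chromosome 11, 61517249 to 61579687) had 25 and 3, a ratio of 1.67 (0.508 to 8.62). A difference of either gene was not detectable at this depth. Over all aortic cells Epn1 had 206 and 192 UMIs, a ratio of 1.10 (0.899 to 1.35), and Epn2 641 and 470, a ratio of 1.40 (1.24 to 1.58). The labels do not say whether the DKO reaches the aorta, so these levels were not used as a check of them.

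The 5 genes given as markers of VS3 fall into Camk1d and a set of 4 sparse genes. Camk1d (chromosome 2, 5293457 to 5714515), a calcium and calmodulin dependent kinase, stood at 5210 CPM (4926 to 5506) labelled DKO and 2838 CPM (2383 to 3355) labelled WT, the highest of the ranked subtypes in both. VS2 followed the same order at 3435 and 1778 CPM and VS1 at 1789 and 816 CPM. After thinning to 500 UMIs Camk1d was seen in 89.1% and 73.6% of VS3 cells. The thinned shares were 80.98% and 58.85% in VS2 and 60.5% and 36.4% in VS1. In TC3 they were 90.5% and 54.8%, above VS3 in the library labelled DKO, where TC3 had 21 cells. Detection in most cells was thus not particular to VS3. In TC1 cells, taken as a background, the thinned shares were 58.1% and 50.6%, and the median depths were 3817 and 2130 UMIs. Without thinning the shares were 93.4% and 80.6% in VS3 and 100% and 86.7% in TC1. Camk1d is also on the list of rRNA-linked genes, whose counts are known to move with ribosomal RNA reads in mouse droplet data. Its order over VS3, VS2 and VS1, and between the libraries, was that of Gm42418, another gene of that list described below.

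Cyb5r3 (chromosome 15, 83153494 to 83172592), which encodes cytochrome b5 reductase, was at 617 CPM (522 to 724) and 1740 CPM (1388 to 2154). Its level in VS1 and VS2 together was 346 and 338 CPM. After thinning it was seen in 19.7% and 33.3% of VS3 cells, against 6.45% and 8.43% of TC1 cells (25.4% and 37.5% against 27.4% and 24.1% without thinning). The thinned shares were 19.9% and 12.9% in FB1, 15.1% and 11.2% in VS1 and 14.7% and 13.3% in VS2. Kctd10, an adaptor of the ubiquitin ligase cullin 3, was at 186 and 539 CPM against 87.7 and 108 CPM in VS1 and VS2 together. Kif1c, a kinesin motor, was at 153 and 497 CPM against 98.5 and 95.4 CPM, and Rassf3, a Ras association domain protein, at 302 and 518 CPM against 180 and 203 CPM. All 4 were thus at least 1.46 times as high as in VS1 and VS2 within each library, after 20 CPM were added to both sides, and all 4 were the highest of the ranked subtypes in both libraries. The levels rest on few UMIs: 45 and 26 for Kctd10, 37 and 24 for Kif1c and 73 and 25 for Rassf3. The ranks carry no interval, and for Kif1c labelled DKO the lead over VS2 (42 UMIs, 110 CPM) was small.

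Few VS3 cells carried more than 1 of these 4 genes. At least 1 of them was seen in 41.7% and 45.8% of thinned VS3 cells, against 27.7% and 26.3% in VS1 and 28.8% and 25.7% in VS2. At least 2 were seen in 6.86% and 18.1% of VS3, against 3.64% and 1.78% in VS1 and 2.76% and 4.42% in VS2. Without thinning at least 1 was seen in 49.6% and 58.3% of VS3 cells, below the 78.2% and 71.0% of the deeper VS1. As one check, the 1 in 36 cells with most UMIs of a gene were left out for each gene in each group (10 and 2 cells of VS3), a step chosen after seeing the data. The fold of VS3 over VS1 and VS2 was then 2.29 instead of 3.31 for Cyb5r3, 2.68 instead of 3.24 for Kctd10, 2.35 instead of 2.95 for Kif1c and 1.65 instead of 2.04 for Rassf3.

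For 3 of the other leading genes, 1 or 2 cells labelled WT held most of the UMIs labelled WT. Tnnt2, cardiac troponin T, had 40 UMIs labelled WT, of which 36 were in 1 cell, and 8 UMIs in 8 cells labelled DKO. Its fold over VS1 and VS2 was 11.1, and 2.02 without the top cells. Fabp4, a fatty acid carrier, had 44 UMIs labelled WT, 18 and 15 of them in 2 cells, and the fold went from 3.14 to 1.37. Cenpb, a centromere protein, had 41 with 15 and 11 in 2 cells, and went from 2.73 to 1.37. Without the top cells the folds of Dynll2, Atf5 and Anp32b were 2.74, 2.79 and 2.54, from 3.17, 3.47 and 2.95.

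Against VS1 and VS2 pooled, libraries weighted alike, 853 genes reached 200 CPM on either side. Of these 32 (3.75%) were at least 2-fold higher in VS3 and 100 (11.7%) at least 2-fold lower, after 20 CPM were added to both, and the median log2 fold was -0.21. Scaled to UMIs without mitochondrially encoded and rRNA-linked genes, the counts were 73 higher and 70 lower of 1014 genes, with a median of -0.02. Lists below are read against these counts. The lists were drawn up with earlier results of these data known.

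The most abundant transcript of VS3 was Gm42418 (chromosome 17, 39846958 to 39848788), a short annotated non-coding gene that overlaps a stretch of ribosomal RNA sequence. It took a median of 20.4% of a VS3 cell's UMIs labelled DKO (quartiles 17.3 and 22.3) and 9.76% labelled WT (7.89 and 12.5). Both were the highest of the ranked subtypes; VS1 stood at 6.64% and 3.33% and VS2 at 11.7% and 7.60%. In summed counts it was at 178227 CPM (176547 to 179919) and 99762 CPM (96964 to 102620). Of 7 measured rRNA-linked genes 6 were higher than in VS1 and VS2, with a median log2 fold of 1.13 and 4 past 2-fold; AY036118, which lies within the annotated span of Gm42418 so that their counts cannot be cleanly separated, was at 4224 and 2258 CPM and Cmss1 at 3259 and 4702 CPM. Among cells under 1000 UMIs (328 and 67 of VS3, 3 and 36 of VS1, 138 and 180 of VS2) that median was 0.36 and no gene of the list passed 2-fold. The limit left mostly VS2 cells on the other side, which hold more Gm42418 than VS1. Depth and the mix of subtypes thus changed together and cannot be told apart here, and the part of each was not tested.

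Transcripts kept in the nucleus were the opposite. Malat1 (chromosome 19, 5795690 to 5802672), a long non-coding RNA of nuclear speckles, took a median of 1.38% (quartiles 0.970 and 1.86) and 0.775% (0.462 and 1.29) of a VS3 cell's UMIs, against 2.59% and 2.47% in VS1 and 1.77% and 2.11% in VS2. Summed, it was at 14209 and 10005 CPM, against 28681 and 33191 CPM in VS1 and VS2 pooled. Neat1, the scaffold of paraspeckles, was at 153 and 104 CPM against 947 and 1107 CPM, the lowest fold of all genes described (0.142). All 3 measured members of the list of nuclear long non-coding RNAs, with Xist as the third, were past 2-fold lower in each library. Among cells under 1000 UMIs the folds were 0.504 for Malat1, 0.195 for Neat1 and 0.420 for Xist.

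**Figure D2:**
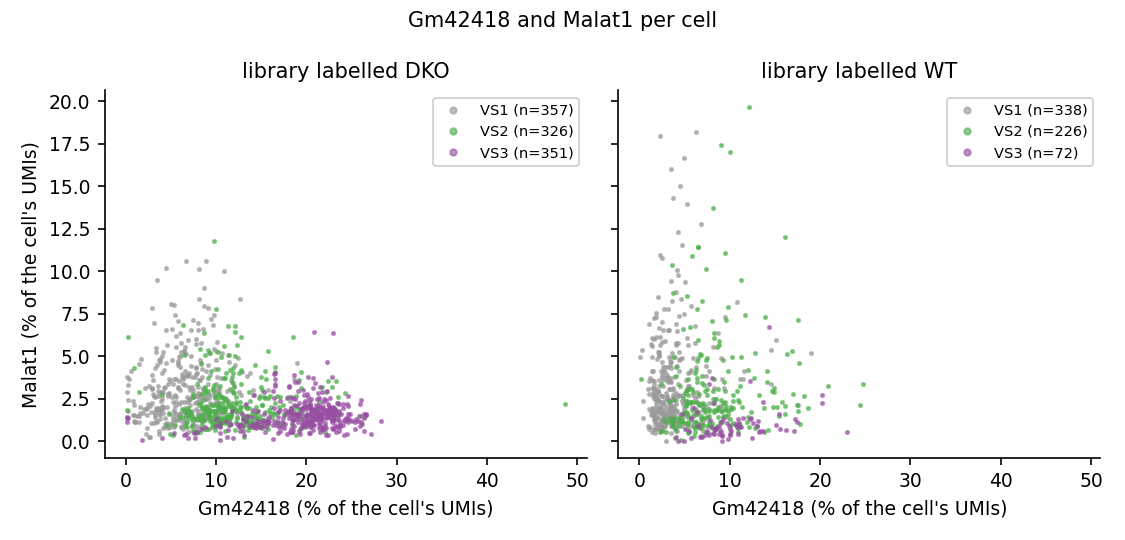
Share of each cell's UMIs in Gm42418 (horizontal axis) and Malat1 (vertical axis) for VS1, VS2 and VS3, 1 panel per library; each point is a cell. VS3 lies at high Gm42418 and low Malat1 in both libraries, with medians of 20.4% and 1.38% labelled DKO and 9.76% and 0.775% labelled WT.

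Contractile genes were somewhat lower in VS3 than in VS1 and VS2. Of 18 measured members 17 were lower, 3 of them past 2-fold, with a median log2 fold of -0.34. Over all 853 genes 513 were lower and the median was -0.21. When mitochondrial and rRNA-linked genes were left out of the scaling, 14 of 18 contractile genes were lower (median -0.19). Acta2 (chromosome 19, 34241090 to 34255590), smooth muscle actin, was at 11165 CPM (10747 to 11594) and 11227 CPM (10302 to 12214), against 16410 and 14848 CPM in VS1 and 14778 and 14222 CPM in VS2. Tagln, transgelin, was at 6141 and 7789 CPM against 8794 and 8738 CPM in both pooled. Myh11, the smooth muscle myosin heavy chain, was at 2911 and 1636 CPM against 3607 and 3015 CPM. Vcl (vinculin, fold 0.475) and Flna (filamin A, 0.610) were among the lower ones, and Synpo2, synaptopodin 2, was at 1.01. With only cells under 1000 UMIs on both sides, 11 of 18 were lower and the median was -0.08. Over all 853 genes 460 were then lower and the median was -0.09. Under this limit, where the comparison cells are mostly VS2, little of the difference in this list was seen. Depth was capped but not matched, and the limit also took out most VS1 cells. Depth and subtype therefore cannot be told apart here.

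**Figure D3:**
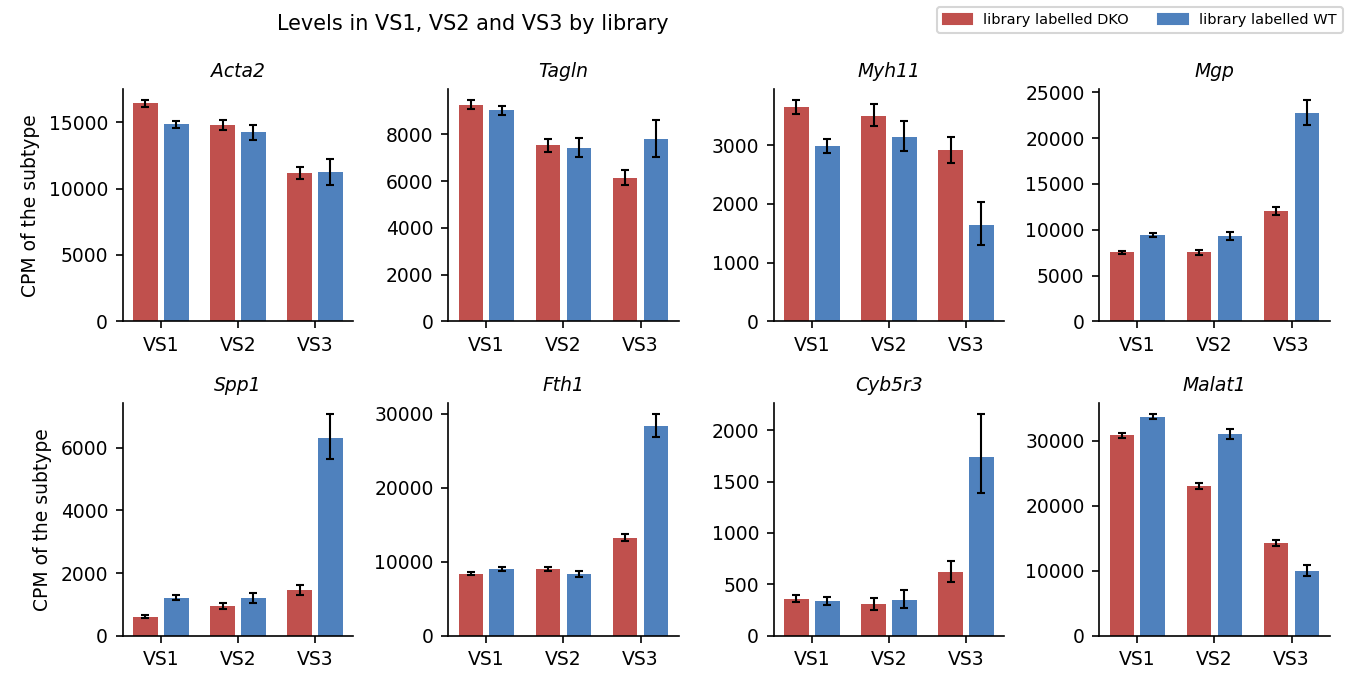
CPM of 8 genes in VS1, VS2 and VS3 by library; bars are levels of the summed counts and error bars exact 95% Poisson intervals. Acta2 and Malat1 are lower in VS3 than in VS1 and VS2, and Mgp, Fth1 and Cyb5r3 are higher. In VS3 labelled DKO 1 cell holds 677 of 3196 Fth1 UMIs and 1 cell holds 349 of 2901 Mgp UMIs. The Spp1 bar of VS3 labelled WT (6318 CPM) rests largely on 2 cells.

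Genes of calcium handling and of the signals that set tone stood lower still. All 7 measured members of the calcium and channel list were lower in VS3, 5 past 2-fold, with a median log2 fold of -1.08, and among cells under 1000 UMIs the median was -1.09 with 4 of 7 past 2-fold. Itpr1, the IP3 receptor of the sarcoplasmic reticulum, was at 253 and 186 CPM against 517 and 433 CPM. Kcnma1, the large-conductance potassium channel, was at 253 and 104 CPM against 435 and 377 CPM, and Atp2a2, the sarcoplasmic calcium pump, at 398 and 249 CPM against 548 and 554 CPM. All 11 measured regulators and signalling genes were also lower, with a median of -0.69 (-0.38 among cells under 1000 UMIs, where 9 of 11 were lower). The lowest of them was Prkg1, the cyclic GMP dependent kinase that relaxes smooth muscle, at 410 and 145 CPM against 1060 and 999 CPM.

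Ribosomal protein genes, which encode the proteins of the ribosome, were higher in VS3. All 21 exceeded their level in VS1 and VS2, with a median log2 fold of 0.78 and 1 past 2-fold, and among cells under 1000 UMIs the median was 0.85 with 4 past it. The size differed between the libraries: the median was 0.40 labelled DKO, where 20 of 21 were higher, and 1.06 labelled WT, where 12 of 21 passed 2-fold. Rplp1 was at 2824 and 3832 CPM against 1911 and 1579 CPM.

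These lists differ in the length of their genes, and the fold of VS3 over VS1 and VS2 went with the genomic span of a gene (start to end in the annotation, mitochondrial and rRNA-linked genes left out). The median log2 fold was 0.32 for 287 genes under 10 kb, -0.01 for 172 of 10 to 30 kb, -0.43 for 164 of 30 to 100 kb and -0.78 for 205 over 100 kb. Among cells under 1000 UMIs it ran from 0.44 to -0.68, and within each library from 0.15 to -0.63 and from 0.44 to -0.92. Genes over 100 kb held 11.3% and 9.27% of the UMIs of VS3, against 17.9% and 16.9% in VS1 and 16.1% and 15.5% in VS2. Prkg1, which spans 1200545 bases, and the ribosomal protein genes lie at the ends of this order. The part of span in any single gene's fold was not tested.

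Genes linked to modulated smooth muscle were mostly higher in VS3; the list shares Mgp, Lum and Dcn with the matrix list, and Lum and Dcn also carried most of the fibroblast sum. Of 9 measured members 7 were higher than in VS1 and VS2, 5 past 2-fold, with a median log2 fold of 1.04, and 0.86 with 3 past 2-fold among cells under 1000 UMIs. With only the VS3 cells of unintegrated cluster 0, 8 of 9 were higher but 1 passed 2-fold and the median was 0.43. Mgp, matrix Gla protein, an inhibitor of calcification, was at 12014 CPM (11580 to 12459) and 22765 CPM (21439 to 24152) against 7529 and 9385 CPM. It was present in 99.7% and 98.6% of VS3 cells, beside 99.7% and 100% of VS1 and 99.4% and 98.7% of VS2. The median VS3 cell held 5 and 6.5 of its UMIs. A single cell labelled DKO held 349 of 2901, and 3 cells labelled WT held 143, 137 and 120 of 1099. Timp1, an inhibitor of matrix metalloproteinases, was at 137 and 331 CPM against 59.4 and 64.9 CPM. Vcam1, an adhesion molecule, had a fold of 2.21, and S100a4, a calcium binding protein, of 2.34. Vim, vimentin, had a fold of 0.983 and Klf4, a regulator of smooth muscle modulation, one of 0.828.

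Spp1 (chromosome 5, 104435118 to 104441050), osteopontin, had 350 UMIs in 198 of 351 VS3 cells labelled DKO, 1449 CPM (1302 to 1610), and 305 UMIs in 39 of 72 labelled WT, 6318 CPM (5629 to 7068). In VS1 and VS2 pooled it was at 693 and 1204 CPM. The median VS3 cell held 1 UMI in both libraries, and 2 cells labelled WT held 122 and 103 of the 305. Its fold over VS1 and VS2 was 4.03, and 2.26 without the top cells. In the cells of unintegrated cluster 11 labelled WT it was at 21835 CPM, and in cluster 0 at 1402 CPM labelled DKO and 1170 CPM labelled WT.

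Genes of elastic fibres and matrix showed no single direction: 8 of 17 were higher than in VS1 and VS2 and 9 lower, with a median log2 fold of -0.01. Under the scaling without mitochondrial and rRNA-linked genes 10 were higher and 7 lower. Sparc, a collagen binding matrix protein, was at 2489 and 5945 CPM against 1921 and 2482 CPM. Eln, elastin, had a fold of 0.731. Fth1, the ferritin heavy chain that stores iron and 1 of the 10 most abundant genes of VS3, was at 13235 and 28358 CPM against 8549 and 8877 CPM. Of its 3196 UMIs labelled DKO 677 were in 1 cell, and of its 1369 labelled WT 203 were in 1 cell. The median VS3 cell held 5 and 9 Fth1 UMIs.

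A few VS3 cells carried several of the 4 sparse markers, 9 cells labelled DKO and 8 labelled WT with at least 3 of them. They were deeper than VS3 as a whole, with medians of 1378 and 751 UMIs, and lower in Gm42418, with medians of 11.2% and 8.82%. Besides the markers that chose them, they held most UMIs of Tnnt2 (38 against 10 in other VS3 cells) and Cenpb (48 against 39). Both are among the 10 genes that led VS3. They also held more S100a10 (1786 against 215 CPM in other VS3 cells), Fth1 (56534 against 12060 CPM) and S100a6 (7851 against 1381 CPM). S100a11 (2451 against 482 CPM) and Tpm4 (1371 against 222 CPM) were higher as well. For Tnnt2, 36 of the 38 UMIs were in 1 cell labelled WT, so its sum describes that cell and not the group. The part of single cells in the other sums was not tested. S100a6 and S100a11 are calcium binding proteins and Tpm4 is a non-muscle tropomyosin. These cells were picked after their values were seen, and the folds are a description.

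Between the libraries, 765 genes had at least 50 UMIs summed over the VS3 cells of both. With the ratio taken as labelled DKO over labelled WT, 68 genes (8.89%) were at least 2-fold higher and 58 (7.58%) at least 2-fold lower, and the median log2 ratio was -0.03. In all, 368 genes were above a ratio of 1 and 397 below. The list counts between the libraries below are read against these. Scaling without mitochondrial and rRNA-linked genes moved the median to 0.12 and the counts to 99 higher and 39 lower. For 108 of the 126 genes past 2-fold the counting interval left out 1. Marker sums that differ between the libraries beside these ratios are those of erythroid cells (1433 and 621 CPM) and chondrocytes (352 and 766 CPM). The pericyte sum (1218 and 725 CPM, mostly Rgs5) and that of skeletal and cardiac muscle (33.1 and 829 CPM, all Tnnt2) differ too. So does the share of cells in unintegrated cluster 11 (8 of 351 and 18 of 72). The fibroblast sum (2704 and 3024 CPM) and the endothelial sum (273 and 311 CPM) were closer. The part of these markers and of cluster 11 in the ratios was not tested. Only 72 VS3 cells stand behind the values labelled WT.

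Contractile genes as a group lay near the median of all genes. Of 16 measured members 10 were above a ratio of 1 and 6 below, with a median log2 ratio of 0.07 (0.23 in VS1 and 0.05 in VS2); 2 were past 2-fold higher and none lower. In unintegrated cluster 0 alone 5 were above and 11 below, with a median of -0.22. Acta2 had 2696 and 542 UMIs, a ratio of 0.994 (0.906 to 1.09). Tagln had 1483 and 376 UMIs, a ratio of 0.789 (0.704 to 0.885), while its ratios in VS1 and VS2 were 1.03 and 1.01. Myh11 went the other way with 703 and 79 UMIs, a ratio of 1.78 (1.41 to 2.27), as did Mylk, myosin light chain kinase (2.16, 1.40 to 3.46), and Flna (2.14, 1.44 to 3.30). Myl9, a myosin light chain, was at 0.745 (0.612 to 0.913). Myh11 and Mylk span 96838 and 257211 bases of the genome, and Tagln and Myl9 6440 and 6239.

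All 21 ribosomal protein genes of the list were lower labelled DKO, 4 past 2-fold, with a median log2 ratio of -0.86. In VS1 and VS2 the medians were -0.12 and -0.11. The direction held for all 21 under every scaling, in cells thinned to 500 UMIs, in cluster 0 and without the top cells. Among the 23 and 5 VS3 cells with at least 1000 UMIs, 12 of 19 were lower and the median was -0.21. Rpl39 and Rpl22, ribosomal protein genes outside the list, were among the 10 lowest of all genes by the bound of the interval nearest to 1. Rpl39 had 177 and 103 UMIs, a ratio of 0.344 (0.268 to 0.442), and Rpl22 130 and 76, a ratio of 0.342 (0.256 to 0.460), against 0.833 and 0.958 in VS2.

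The lowest ratio of the named genes with several cells behind it was that of Ibsp (chromosome 5, 104299171 to 104311469), bone sialoprotein, a matrix protein of mineralised tissue. It had 12 UMIs in 9 cells labelled DKO and 44 UMIs in 20 cells labelled WT, a ratio of 0.0545 (0.0262 to 0.105). In unintegrated cluster 0 it had 12 and 9 UMIs (53.3 and 263 CPM), and 21 of the 44 UMIs labelled WT were in the 18 cells of cluster 11. The ratio was 0.0115 in VS1 and 0.0563 in VS2, and Ibsp was highest in HS3, at 641 and 10395 CPM, so VS3 shared the difference with other subtypes. Ecrg4, the precursor of the secreted peptide augurin, was alike, with ratios of 0.208 (0.115 to 0.375) in VS3, 0.0892 in VS1 and 0.113 in VS2. Cst3, cystatin C, a protease inhibitor, had 605 and 349 UMIs, a ratio of 0.347 (0.303 to 0.397), against 0.493 and 0.635 in VS1 and VS2. Of the 349 UMIs, 175 were in the 18 cells of cluster 11, and in cluster 0 alone the ratio was 0.645. Pde4d, a cyclic AMP phosphodiesterase, was at 509 and 1844 CPM, a ratio of 0.276 (0.209 to 0.367), against 0.519 and 0.644. Mgp had a ratio of 0.528 (0.492 to 0.566), against 0.801 and 0.808, and Sparc one of 0.419 (0.363 to 0.484); in cluster 0 alone these were 0.702 and 0.613.

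Spp1, Fabp4, Cenpb and Cyb5r3 were among the 10 lowest as well, and top cells carried part of it. Their ratios were 0.229 (0.196 to 0.268), 0.214 (0.139 to 0.330), 0.224 (0.144 to 0.350) and 0.355 (0.270 to 0.469). Without the top cells they were 0.685, 0.446, 0.321 and 0.390. In cluster 0 alone the Spp1 ratio was 1.20, on the other side of 1, that of Fabp4 0.653, that of Cenpb 0.176 and that of Cyb5r3 0.289. The ratios of Cyb5r3 in VS1 and VS2 were 1.07 and 0.885, and those of Cenpb 0.939 and 0.985. Of the 5 given markers, 3 were past 2-fold lower (Cyb5r3, Kctd10 and Kif1c), Rassf3 was lower at 0.584 (0.366 to 0.960) and Camk1d higher at 1.84 (1.54 to 2.21). Since these genes define VS3, their ratios also depend on which cells of each library the clustering put there.

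The 10 highest genes by the interval bound nearest to 1 included the abundant Gm42418, at a ratio of 1.79 (1.73 to 1.84), AY036118 at 1.87 (1.53 to 2.30) and Camk1d. These 3 were higher labelled DKO in VS1 and VS2 too, with ratios of 1.88 and 1.45 for Gm42418. Of 7 measured rRNA-linked genes 5 were above 1 and 2 below, and Cmss1 was at 0.693 (0.597 to 0.807). Over all aortic cells the median Gm42418 share of a cell was 7.56% and 3.59%.

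Among the other high genes, Mcam, an adhesion molecule of vascular cells, had 68 UMIs in 17.9% of VS3 cells labelled DKO and 1 UMI labelled WT, a ratio of 13.6 (2.36 to 545). At 282 CPM it was higher than in any other ranked subtype labelled DKO, and its ratios in VS1 and VS2 were 1.17 and 1.74. Ddx3x, an RNA helicase, had 142 and 7 UMIs, a ratio of 4.06 (1.92 to 10.3), and Brd2, a reader of acetylated histones, 135 and 8, a ratio of 3.37 (1.66 to 7.97). Postn, periostin, a matrix protein, had 177 and 11, a ratio of 3.22 (1.75 to 6.56), with 1.89 and 1.91 in VS1 and VS2. Pmepa1, a target of TGF-beta signalling, had 112 and 7 UMIs, a ratio of 3.20, and Zbtb20, a transcription repressor, was at 2.66 (1.67 to 4.50), and at 1.94 in cluster 0 alone. Counts labelled WT of 1 to 19 UMIs leave these intervals wide. Hbb-bs, a beta globin of red cells, had 203 and 12 UMIs, a ratio of 3.38 (1.89 to 6.65). These UMIs are part of the erythroid sum of 346 and 30 UMIs, so the 2 are not separate observations. Its ratio was 0.419 in VS1 and 6.53 in VS2.

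**Figure D4:**
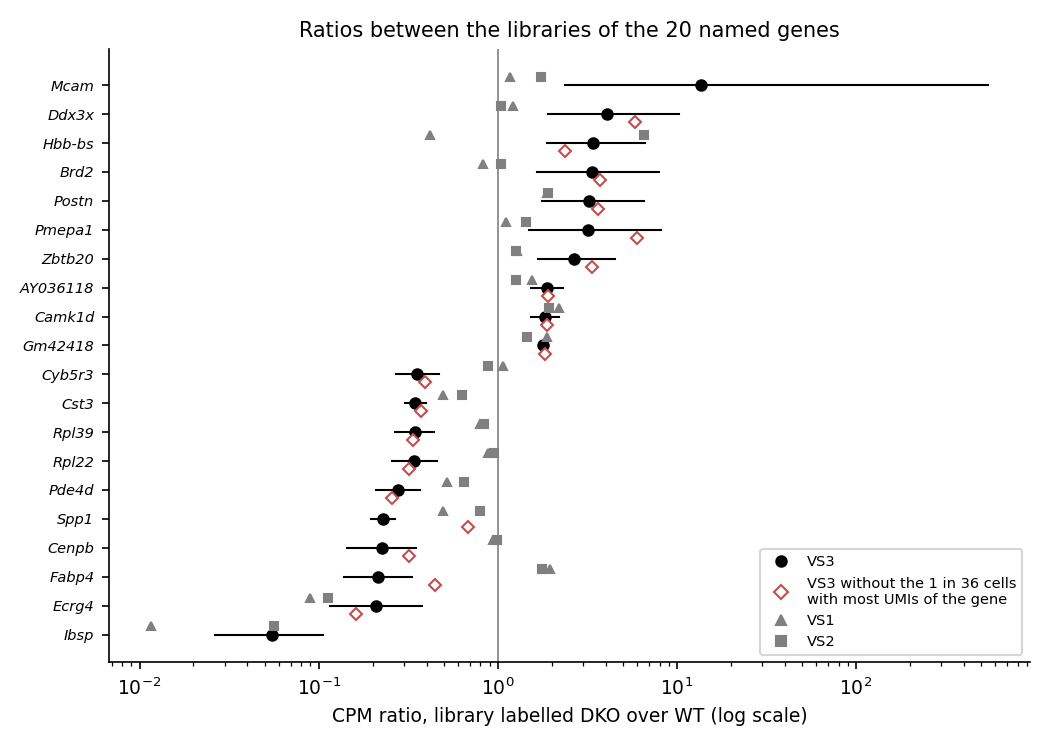
Ratio of CPM in the library labelled DKO over that labelled WT, on a log axis, for the 20 genes named for the highest and lowest ratios in VS3. Black points and lines are VS3 with exact 95% intervals for counting error, open red diamonds leave out the 1 in 36 cells with most UMIs of the gene (none is drawn for Mcam and Ibsp, which then have no UMI in one library), and grey marks are VS1 and VS2; Spp1 moves from 0.229 to 0.685 and Rpl39 from 0.344 to 0.338.

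The calcium and channel list had 4 measured members, all above 1, with a median log2 ratio of 0.56 and 1 past 2-fold (Kcnma1, 61 and 5 UMIs, 2.44, 0.990 to 7.78). All 9 regulators and signalling genes were above 1, with a median of 0.57; Rgs5, a regulator of G protein signalling, was at 2.25 (1.42 to 3.75), with 2.85 and 2.70 in VS1 and VS2. Immediate early and stress genes were above 1 in 17 of 21 cases, beside 368 of all 765 genes. Their median was 0.37 against -0.11 in VS1 and -0.20 in VS2. Of the 21, 2 passed 2-fold (Klf6 and Nr4a1), close to the share of 8.89% of all genes. Among mitochondrially encoded genes 10 of 11 were above 1 with a median of 0.09. Of 12 nuclear genes of oxidative phosphorylation 8 were below 1, with a median of -0.47 against -0.28 and -0.27 in VS1 and VS2. Of 17 matrix genes 11 were above 1, with a median of 0.18, 1 past 2-fold higher (Col4a1, basement membrane collagen, 2.47, 1.08 to 6.93) and 1 lower (Sparc). Of 8 measured genes of modulated smooth muscle 6 were below 1, with a median of -0.47, against -0.60 and -0.38 in VS1 and VS2, but the median was 0.17 in unintegrated cluster 0. All 4 interferon-stimulated genes were below 1, with a median of -0.39, and of 0.01 in thinned cells, where 3 were measured.

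The remaining lists had few members with 50 UMIs in VS3. They were 8 genes of membrane traffic (5 above 1), 5 each of CaM kinases (2 above 1) and of cullin 3 and RhoB turnover (2 above 1), 4 of the RASSF and Hippo list (1 above 1), 3 of the epsin and clathrin list (2 above 1), 2 nuclear long non-coding RNAs (both above 1, Malat1 at 1.42 and Xist at 3.33 with 50 and 3 UMIs, 1.08 to 16.7) and 1 of cytochrome b5 and desaturation, Cyb5r3. None of the 24 lipoprotein receptor and cholesterol genes was measured at that level, so their change in VS3 was not detectable at this depth.

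The ratio between the libraries also went with gene span, and in the reverse order. The median log2 ratio in VS3 was -0.36 for 296 genes under 10 kb, -0.17 for 170 of 10 to 30 kb, 0.14 for 142 of 30 to 100 kb and 0.38 for 132 over 100 kb. In the same genes it ran from -0.12 to 0.13 in VS1 and from -0.13 to 0.06 in VS2. Without the top cells of each gene it ran from -0.46 to 0.48 in VS3. Short ribosomal protein genes and long regulators of tone lie at the ends of this order too, and the part of span in their ratios was not tested.

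**Figure D5:**
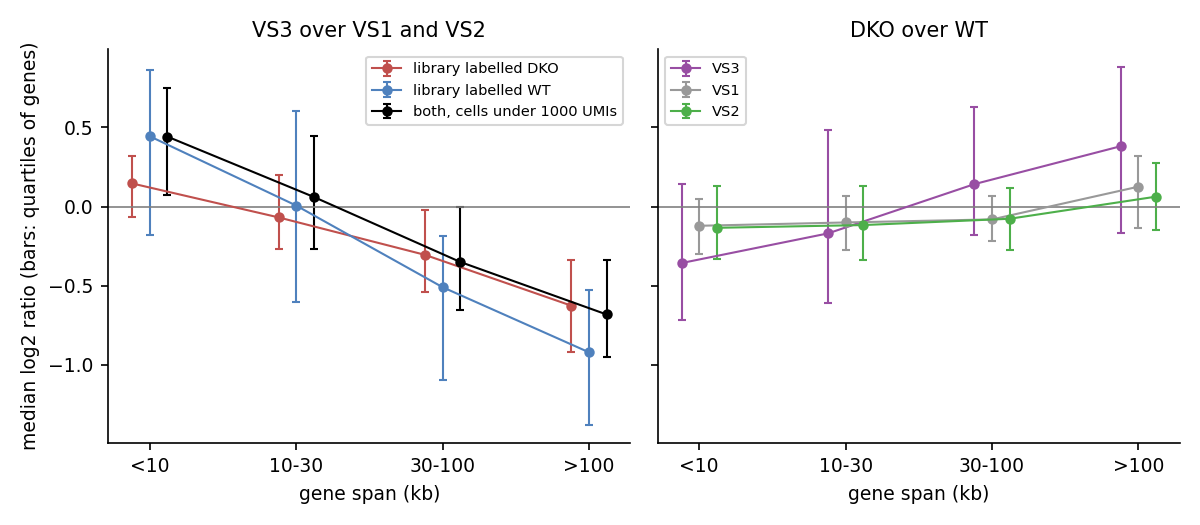
Median log2 ratio by genomic span of the gene, with error bars from the lower to the upper quartile of genes. At left, VS3 over VS1 and VS2 falls with span in each library and among cells under 1000 UMIs (0.44 to -0.68); at right, the ratio labelled DKO over labelled WT climbs with span in VS3 (-0.36 to 0.38) and varies less in VS1 and VS2.

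The nearest subtype to VS3 differed between the libraries. Across 747 genes, on log2 CPM after adding 20, and leaving out mitochondrial and rRNA-linked genes, VS3 labelled DKO had its highest correlation with VS2 (r = 0.924), followed by AP2 (0.905) and VS1 (0.904). VS3 labelled WT came closest to MP1 (0.822) and AP2 (0.812), with VS2 at 0.750 and VS1 at 0.747. By rank correlation VS2 was again first labelled DKO (0.880), but ET1 (0.870) came before VS1 (0.864) and AP2 (0.859). Labelled WT the first were again MP1 (0.729) and AP2 (0.708), then ET1 (0.688), with VS2 at 0.640 and VS1 at 0.637. The order after the first thus depended on the measure. Genes are not independent replicates, the profiles of a library share its background RNA, and the 48275 UMIs labelled WT give a noisier profile than the 241473 labelled DKO.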

How the data were processed

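The deposited count table, made by the authors, holds whole UMI counts for each gene in each cell of both aorta libraries, beside a table of cell metadata. Cell Ranger 7.1.0 and the mm10 build are named in the submitters' processing notes. The authors' cell filters, integration, clustering and naming are theirs and were taken as given, and their settings, doublet handling included, are not stated in the sources used. From the metadata the library, the subtype and the cluster without integration were taken, and 28 other columns were not used. No doublet caller was run. Within each subtype and library the UMIs of a gene were added up and scaled to the total (CPM). CPM sums to a fixed total, so a gene that takes many UMIs lowers all others. Intervals were exact Poisson for CPM, Clopper-Pearson for shares and conditional binomial for ratios. They cover counting error only. Genes needed 50 summed UMIs between libraries, or 200 CPM on one side between subtypes, where 20 CPM were added to both. Spans came from the GENCODE annotation of the same build, for 99.1% of the measured genes. Thinning drew 500 UMIs per cell.

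The genes named were the 5 given markers, the 10 highest and 10 lowest between libraries by the interval bound nearest to 1, the 10 highest and lowest folds against VS1 and VS2 and against all other cells, the 10 most abundant, and up to 4 most abundant members of each list. Other list members named in the text were chosen after their values were seen. The members, the lists and the markers were chosen with earlier results of these data known. The interval code was tested on simulated data with known folds. Computations used Python 3.11.15, numpy 2.4.6, scipy 1.17.1, pandas 2.3.3 and matplotlib 3.10.9.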

Additional observations from a re-analysis of the deposited data

Results flagged for a closer look

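For 2 of the named genes the counting interval of the ratio labelled DKO over labelled WT left out 1 in one direction in VS3 and in the other direction in both VS1 and VS2. The difference between the subtypes was not tested, since each library is 1 sample. Fabp4 had a ratio of 0.214 in VS3, 1.96 in VS1 and 1.77 in VS2; without the 1 in 36 cells with most of its UMIs the VS3 ratio was 0.446. Malat1 had a ratio of 1.42 in VS3, 0.916 in VS1 and 0.742 in VS2, and 1.49 in VS3 without its top cells.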

How the results depend on the processing

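Main values that moved are given here, and others as counts; the cause was not tested unless fewer cells or genes entered. The share ratio of VS3 was 4.88, and 3.00 with VS1, VS2 and VS3 as denominator and 6.61 for unintegrated cluster 0. The ratio of median UMIs was 1.02, and 0.862 on UMIs without mitochondrial and rRNA-linked genes. The 126 genes past 2-fold became 71 (of 391 measured) without cells carrying 2 or more markers of another type, 16 (of 128) with cells of at least 1000 UMIs, 527 and 48 at minima of 20 and 100 UMIs, and 332 at 1.5-fold. Against VS1 and VS2, 132 became 212 without top cells. The contractile median of 0.07 became 0.23 under the scaling without mitochondrial and rRNA-linked genes and -0.22 in cluster 0. The ribosomal protein median of -0.86 became -0.71 under that scaling, -0.73 without cells carrying markers of another type and -0.21 in cells of at least 1000 UMIs. Reversed were the ratio of Spp1 in cluster 0 (1.20) and, in cells of at least 1000 UMIs with 1 gene left in each, the medians of the given markers (1.25) and of nuclear long non-coding RNAs (-0.12). Over all alternatives, values of single named genes stayed within the interval 534 times, moved 61 times and reversed once, for Spp1; with cells of at least 1000 UMIs 23 moved and 7 did not. List medians moved by over 0.1 (log2) 66 times, reversed 2 times and otherwise stayed 59 times. The settings on top cells, cluster 0 and cells under 1000 UMIs, and the rescaled comparison with VS1 and VS2, were chosen after seeing the data. No paired analysis was possible because each group has 1 library. Of 114 named genes 89 reached 50 summed UMIs.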
